A study of Mus musculus with 6 samples.

Results

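The muscle atrophy genes described here were 10 transcripts with known parts in muscle wasting. They comprised the FoxO transcription factors Foxo1, Foxo3 and Foxo4, the ubiquitin ligases Fbxo32 (atrogin-1) and Trim63 (MuRF1), the glucocorticoid-responsive factor Klf15, the growth arrest and stress genes Gadd45a and Cdkn1a, and the metallothioneins Mt1 and Mt2. Members were taken by gene symbol, and 10 of 10 were among the 14015 genes listed with a symbol in the deposited table. Bulk RNA sequencing of polyA RNA had been carried out on muscle (quadriceps) of 6 mice, taken 7 days after volumetric muscle loss, a surgical removal of a piece of the muscle that does not heal by itself. All 6 mice received the injury and no implant. There were 3 wild-type (WT) C57BL/6 mice, described as young adult females in the study's methods, and 3 GATA-1 mutant mice, the ΔdblGATA strain, which carries a deletion in the Gata1 promoter and lacks eosinophils. The deletion is in the germline, so each cell of those mice carried it, and no uninjured muscle was among the samples. No age was given in the labels for either genotype.

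Skeletal muscle loses mass when protein breakdown outpaces synthesis. FoxO factors are held in the cytoplasm by Akt, a kinase downstream of insulin and Igf1; when that signal falls they enter the nucleus and switch on Fbxo32 and Trim63, whose products mark muscle proteins with ubiquitin for the proteasome, together with genes of autophagy. Glucocorticoids act on the same genes through their receptor, both directly and through Klf15. Gadd45a and Cdkn1a (p21) are growth arrest genes that are induced in denervated and immobilised muscle, and metallothioneins are small zinc-binding proteins whose transcripts are raised by metals, glucocorticoids and wasting.

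The values used here were the authors' mean log2 CPM of each gene over all 6 samples, a single column that pools both genotypes. CPM are read counts scaled to a common library size. It carries no value per sample, so there is no spread, no n for either genotype and no test between WT and GATA-1 mutant mice, and it cannot be said which neighbouring levels differ by more than their replicate error. A CPM below is 2 raised to the mean log2 CPM. Longer transcripts give more fragments per molecule. Levels of different genes were therefore compared after division by transcript length, as CPM per kilobase (kb) of the longest coding transcript. How transcripts were summed to genes is not given, so it is unknown whether the CPM had already been scaled for length. If they had, values per kb would be too low for long transcripts and too high for short ones. A rank or median given in CPM is a description that, without such scaling, also reflects length. In whole muscle, fewer cells of a type and less RNA per cell cannot be told apart.

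Promoter sequence is shown for Trim63, Mt1 and Mt2, whose windows held the FoxO and glucocorticoid receptor matches and the TGCACNC metal response element. RefSeq windows (GRCm38.p6, 250 bases before to 50 after a start site) were found for 8 of the 10 members, in 9 windows, since Cdkn1a had more than 1 start. Fbxo32 and Foxo4 were not among them. The bases before the Trim63 start, chr4:134314870-134315119 on the + strand, are given whole because they held the only FoxO and glucocorticoid receptor matches among the members. Capitals mark, in order, the palindrome GAACANNNTGTTC, the FoxO match and the TATA box.
Trim63: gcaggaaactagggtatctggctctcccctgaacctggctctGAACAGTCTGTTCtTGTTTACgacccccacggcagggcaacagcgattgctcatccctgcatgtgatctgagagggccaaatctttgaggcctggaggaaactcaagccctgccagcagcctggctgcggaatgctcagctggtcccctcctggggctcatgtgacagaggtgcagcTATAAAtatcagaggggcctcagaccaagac

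For both metallothioneins, 30 bases are shown around the metal response element (TGCACNC, in capitals) nearest before the start site. The Mt1 stretch is chr8:94179055-94179084 and the Mt2 stretch chr8:94172557-94172586, both read on the + strand. In Mt2 the element lies on the other strand, so its reverse complement is seen.
Mt1: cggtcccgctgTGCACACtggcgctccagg
Mt2: ggggggagggcGTGTGCAggctctgtccca

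In Trim63, which targets thick filament proteins, the palindrome of the kind bound by the glucocorticoid receptor began 208 bases before the start site. Of all 32851 promoter windows of the same length, 19 (0.058%) held GAACANNNTGTTC on either strand. This form was chosen after the sequences were seen; the full site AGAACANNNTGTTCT, on the original motif list, was in 3 windows and in no member's. The half-site AGAACA, in 18.97% of windows, overlaps the palindrome and had its match on the reverse strand, 200 bases before the start. The FoxO motif GTAAACA, present in 3.65% of windows, lay on the reverse strand 194 bases before the start, and its longer form TTGTTTAC (1.23% of windows), which overlaps it, followed the palindrome with no base between them. Among the 8 members with a window, Trim63 alone held GTAAACA or AGAACA. The Trim63 window also contained the muscle E-box CAGCTG (16.3% of windows) 72 bases before the start and TATAAA (13.6%) 31 bases before it. Of the other members, Cdkn1a held CAGCTG too, after a start site.

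The TGCACNC form of the metal response element occurred in the windows of Mt1 and Mt2 and of no other member, against 12.6% of all windows. In Mt1 the match nearest before the start site was at 23 bases, and in Mt2 at 50 bases, with a further one at 223 bases. The related form TGCGCNC (15.4% of windows) was found in Mt1, Mt2, Klf15 and Foxo3. Klf15, a Krüppel-like factor that drives amino acid breakdown, held 3 copies of the E-box CACGTG, at 228, 172 and 3 bases before its start, a motif present in 7.15% of windows. The GC box GGGCGG was in 6 of the 8 members (35.7% of windows), absent from Trim63 and Mt2, and CCAAT was in Foxo1, Gadd45a and Klf15 (37.4% of windows). Neither TGACGTCA nor GACGTGGC, elements of the CREB and ATF6 kind, was found in a member's window, where 1.79% and 0.764% of all windows held them. A match is a description of the letters and not a measured binding site.

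**Figure D1:**
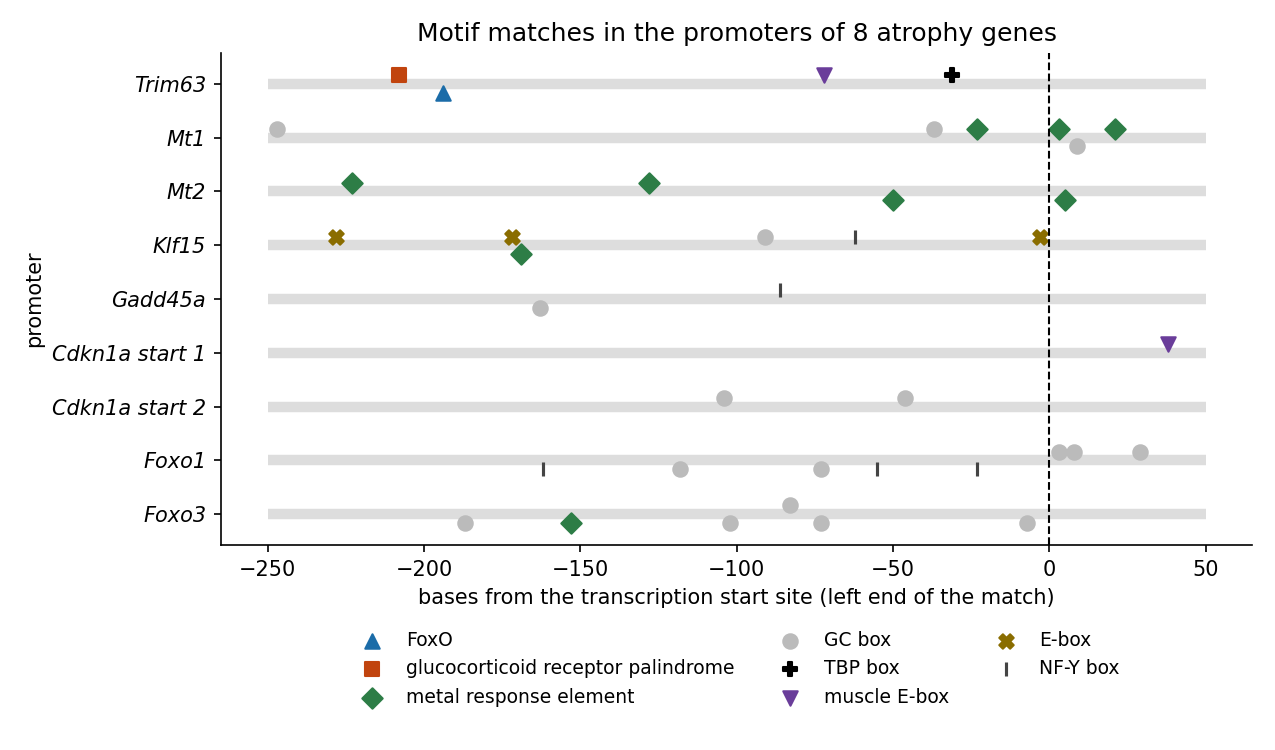
Positions of motif matches in the promoter windows of 8 atrophy genes, in bases from the transcription start site (dashed line); symbols above each grey bar are on the gene's strand and those below it on the other strand. Metal response elements (both forms, green) are in Mt1, Mt2, Klf15 and Foxo3, and Trim63 holds the receptor palindrome 208 bases and the FoxO motif 194 bases before its start. TBP box is the TATA motif and NF-Y box the CCAAT motif; half-sites are not drawn.

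Among the FoxO factors, Foxo4 had the highest level per length. Foxo4 (chromosome X) was at 6.75 mean log2 CPM, or 107.6 CPM, and at 5.09 log2 CPM per kb of its 3162-nt transcript. Foxo3 (chromosome 10), the member best known for driving Fbxo32 and autophagy genes, was at 5.21 mean log2 CPM and 2.43 log2 CPM per kb. The level of Foxo1 (chromosome 3) was 4.88 mean log2 CPM and 1.76 log2 CPM per kb, below the 2.27 of the median gene. That place depended on the length, since by coding length Foxo1 was at or above 58.07% of genes. In CPM it was at or above 66.42%. Per length, Foxo4 was 10.02-fold above Foxo1 and 6.31-fold above Foxo3, and Foxo3 was 1.59-fold above Foxo1. The order of these 3 was the same under every length tried, but the size of each gap depended on the length. On the log2 scale Foxo4 over Foxo1 ran from 2.24 to 4.56 and Foxo3 over Foxo1 from 0.28 to 4.40. The gap of Foxo4 over Foxo3 was 2.66 on the log2 scale with the longest coding transcripts and 1.41 with the first numbered ones, and it was 0.15 with the shortest, where Foxo3 is represented by a 514-nt model. Foxo6, the remaining member of the family, was at 2.87 log2 CPM per kb, which was 2.15-fold above Foxo1 per kb of transcript but 1.32-fold below it per kb of coding sequence.

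Both ubiquitin ligases were above the median gene, and Trim63 alone of them was in the top decile per kb of transcript. Fbxo32 (chromosome 15), the substrate-binding part of an SCF ligase, was at 7.61 mean log2 CPM (194.9 CPM), at or above 95.9% of listed genes. Trim63 (chromosome 4), a RING ligase of the sarcomere, was at 7.48 mean log2 CPM (178.2 CPM), at or above 95.4%. In CPM they thus lay 0.13 apart on the log2 scale, but their transcripts differ in length, 6976 nt for Fbxo32 and 1886 nt for Trim63. Per kb of transcript, Trim63 (94.5 CPM per kb) was 3.38-fold above Fbxo32 (27.9 CPM per kb). By that measure Trim63 was at or above 96.0% of genes and Fbxo32 at or above 86.7%. By coding length, which is 1065 nt in both, the order turned and Fbxo32 was 1.09-fold above Trim63. Both were then in the top decile, Fbxo32 at or above 94.85% of genes and Trim63 at or above 94.32%. Only 15.3% of the Fbxo32 transcript was coding, against 56.5% of that of Trim63.

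The other MuRF genes differed in level from Trim63. Trim54 (MuRF3) was 1.84-fold above Trim63 per kb, at 7.44 log2 CPM per kb, and Trim55 (MuRF2) was 4.11-fold below it, at 4.52. Trim63 and Trim54 were identical at 68.5% of 1110 aligned positions of their coding sequences. Of the 31-base words of the Trim63 transcript, 0.54% occurred in other genes. For Fbxo32 and Foxo1 these shares were 4.46% and 8.0%. Fbxo40, a muscle F-box protein that targets Irs1, was 1.65-fold above Fbxo32 per kb of transcript and 1.64-fold below it per kb of coding sequence.

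Klf15 (chromosome 6) was at 4.52 mean log2 CPM, equal to 23.0 CPM, and at 3.21 log2 CPM per kb. Its per-length level was at or above that of 66.3% of genes, so that only Foxo1 and Foxo3 among the 10 were lower. With the first numbered transcripts Foxo3 (3.68) was instead above Klf15 (3.27), as it was with the shortest coding transcripts. The glucocorticoid receptor gene Nr3c1, whose product induces Klf15, was at 4.19 log2 CPM per kb.

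Gadd45a and Cdkn1a stood at the top of the 10 per length, together with Trim63. Gadd45a (chromosome 6), a stress gene that remodels muscle nuclei after denervation, was at 6.99 mean log2 CPM (126.8 CPM) and 103.7 CPM per kb, at or above 96.4% of genes per length. Cdkn1a (chromosome 17), the cyclin-dependent kinase inhibitor p21, was at 7.62 mean log2 CPM (196.3 CPM) and 94.4 CPM per kb. Levels of Gadd45a, Trim63 and Cdkn1a per kb spanned 0.14 on the log2 scale, from 6.56 to 6.70, and by coding length Cdkn1a was above Gadd45a by 0.68.

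Gadd45a and Cdkn1a were above their relatives per kb of the longest coding transcript. Gadd45a was 3.93-fold above Gadd45b and 2.95-fold above Gadd45g per kb, and it was above both under every length tried. Cdkn1a was 8.20-fold above Cdkn1b (p27) per kb of transcript and 4.64-fold above it by coding length. Cdkn1c (p57), at 6.22 log2 CPM per kb, was 1.27-fold below Cdkn1a. Cdkn1c was 3.04-fold below Cdkn1a by coding length and 1.03-fold above it with the shortest coding transcripts. Part of each transcript was shared with other annotated genes. Of the 31-base words of Gadd45a, 17.4% also occurred in E230016M11Rik. Of those of Cdkn1a, 11.3% occurred elsewhere, most often in AC167363.2, and 2626 genes held some of them. Neither E230016M11Rik nor AC167363.2 was among the listed genes. Whether the remaining sharing genes were listed was not examined.

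The metallothioneins were among the lower members in CPM and near the middle of the 10 per length. Mt1 was at 4.67 mean log2 CPM (25.5 CPM) and Mt2 at 3.68 (12.8 CPM), and both lie on the + strand of chromosome 8. Mt2 was the only member below the median CPM of all genes, 16.3. Per kb of the longest coding transcript, Mt1 was at 4.56 and Mt2 at 4.65 log2 CPM per kb. The longest Mt1 model is a 1-exon transcript of 1085 nt. With the first numbered transcripts, 549 nt for Mt1 and 511 nt for Mt2, Mt1 was instead 1.85-fold above Mt2, and the order also turned with coding length and with the shortest transcripts. The coding length used was the longest of any model, 396 nt for Mt1 and 228 nt for Mt2. In the first numbered transcripts the coding sequence is 183 nt in both genes, and these bases were identical at 79.2% of positions. In CPM, where no length enters, Mt1 was 1.99-fold above Mt2. No 31-base word of Mt1 occurred in another gene, whereas 56.1% of those of Mt2 did, mainly in Gm45774, the largest share among the 10, and how shared fragments were divided was not tested. Mt3, better known from brain, was at 4.31 log2 CPM per kb, and Mt4 was not listed.

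**Figure D2:**
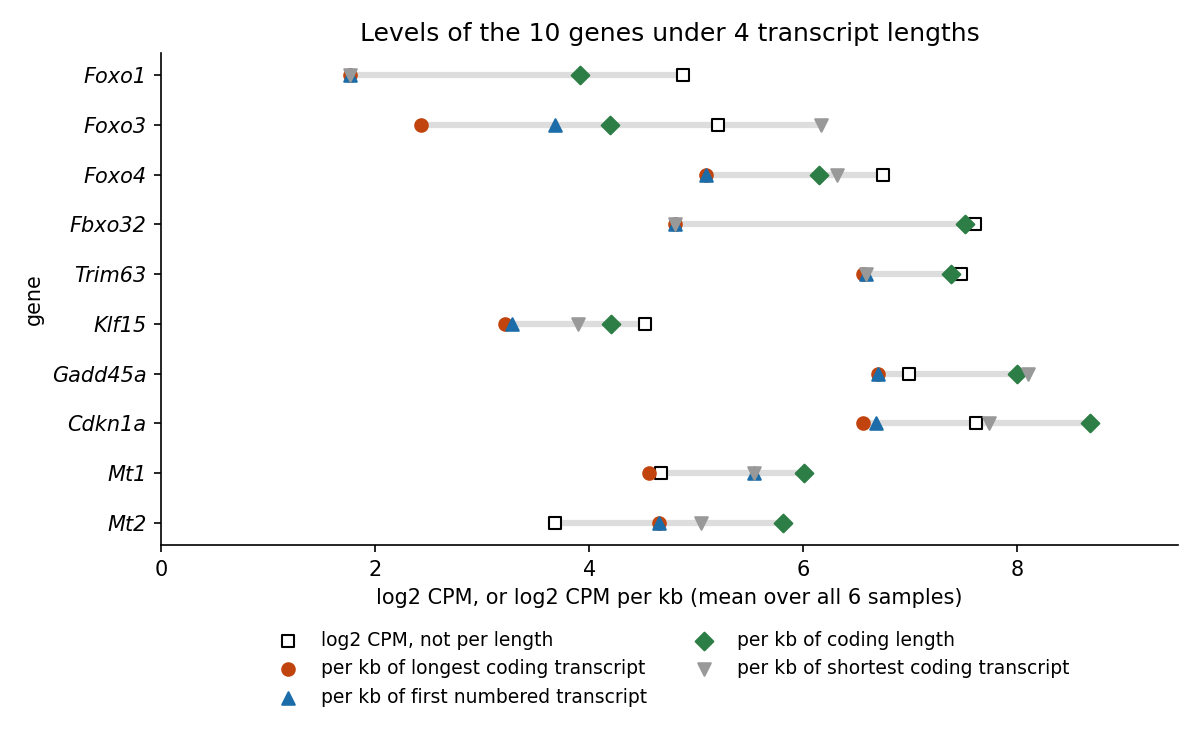
Level of each of the 10 genes as log2 CPM (open squares) and as log2 CPM per kb under 4 choices of length, each a mean over all 6 samples with no error available; grey bars join the lowest and highest value of a gene. Foxo1 is lowest under the longest coding transcript (1.76), and Fbxo32 shifts most between transcript and coding length (15.3% of its transcript is coding).

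Across the 10 genes, the level per length ran from 1.76 log2 CPM per kb for Foxo1 to 6.70 for Gadd45a, a 30.5-fold range. In ascending order the genes were Foxo1, Foxo3, Klf15, Mt1, Mt2, Fbxo32, Foxo4, Cdkn1a, Trim63 and Gadd45a. Their median was 4.73 log2 CPM per kb, and that of the 13458 genes with a length was 2.27. Above the latter stood 9 of 10 members, all but Foxo1, and 3 of 10 were in the top decile. By coding length, 10 of 10 were above the median gene. In CPM, 9 of 10 were above the median gene, all but Mt2, and 5 of 10 were in the top decile. The transcription factors filled the lower places with the exception of Foxo4, and the ligases and growth arrest genes filled 4 of the upper 5. Since the genes were picked for their role in muscle, their place among all genes is a description.

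**Figure D3:**
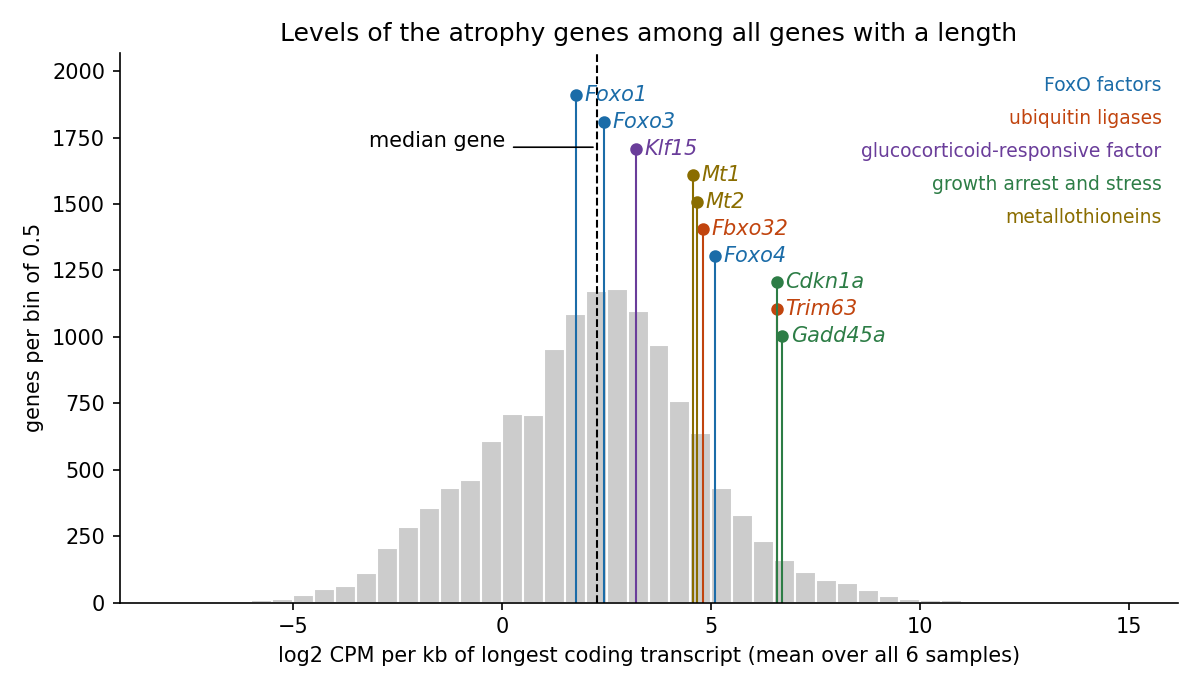
Distribution of log2 CPM per kb over the 13458 genes with a length (grey bars, genes per bin of 0.5), with a line for each of the 10 atrophy genes, coloured by role; line heights only separate the labels. Foxo1 lies left of the median gene (dashed, 2.27), and Cdkn1a, Trim63 and Gadd45a lie together between 6.56 and 6.70.

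Genes around the 10 were taken from 6 pathway lists. Of 74 such genes, 72 were listed, with a median of 4.13 log2 CPM per kb, and 57 were above the median gene per kb (62 in CPM). Those named below are from the 2 highest and the 2 lowest of a list in CPM, with their level per kb. In the list of FoxO and Akt signalling, which acts upstream of Fbxo32 and Trim63, 11 of 16 were above the median per kb. The kinase gene Akt2 was at 6.15 and the ligand gene Igf1 at 4.22 log2 CPM per kb, while the adaptor Irs2 was at 1.44 and the activin and myostatin receptor Acvr2b at -2.66. Foxo1 and Foxo3 lay below the list median of 3.19 log2 CPM per kb, and Foxo4 above it.

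The list of muscle ubiquitin genes, in which Fbxo32 and Trim63 would fall, had 12 of 15 above the median per kb. The polyubiquitin gene Ubb was at 9.44 log2 CPM per kb. Fbxo21 and Trim32, ligases linked to atrophy, were at 1.62 and 2.28. Fbxo32 lay just above the list median of 4.53 log2 CPM per kb, and Trim63 well above it. Among autophagy and metabolic targets of FoxO factors, 14 of 14 listed genes were above the median per kb, with Sesn3 not listed. Txnip, an inhibitor of glucose uptake, was at 7.47 and the autophagy receptor gene Sqstm1 at 7.22 log2 CPM per kb. Eif4ebp1 and Cited2 had the lowest CPM of that list and 4.64 and 4.46 log2 CPM per kb.

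In the glucocorticoid list, 9 of 10 were above the median per kb. Glul, which makes glutamine and is induced by glucocorticoids in muscle, was at 7.03 log2 CPM per kb. Hsd11b1, which regenerates active glucocorticoid, was at 2.66, and Cebpd at 2.28. Klf15 (3.21) was close to the list median of 3.13 log2 CPM per kb. Of the p53 and growth arrest genes, 10 of 11 were above the median per kb. Ccng1, a p53 target, was at 7.34 log2 CPM per kb and the stress factor gene Atf4 at 6.36, with Trp53 itself at 3.91 and Cdkn2a at 0.48. Gadd45a and Cdkn1a were both above Atf4 per kb and below Ccng1.

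The metal handling list was the only one whose median was below that of all genes. Of its 6 listed genes, 1 was above the median per kb, namely Mt3. Mtf1, the factor that binds metal response elements, was at 1.86, and the zinc importers Slc39a14 and Slc39a8 were at 2.13 and -0.59 log2 CPM per kb. Mt1 and Mt2 were above each of the 6 per kb of the longest coding transcript.

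The labelled tissue was checked against cell markers. All 10 skeletal muscle fibre markers were in the top decile in CPM and lay between 5.92 (Ttn) and 13.77 (Acta1) log2 CPM per kb, so 9 of them exceeded Gadd45a, the highest of the atrophy genes. Of the macrophage markers 5 of 6 were listed, from 2.68 (Cd14) to 8.72 (Lyz2) log2 CPM per kb, and Adgre1 was not. The 4 fibroblast and 3 endothelial markers were all listed. Hence the levels of the 10 genes are sums over fibres and other cells, and the share of each was not tested. None of 6 eosinophil markers (Epx, Prg2, Siglecf, Ccr3, Il5ra and Ear1) was listed. By the study's methods, a gene was kept only above 1 CPM in at least 3 samples, the size of each genotype group. The mean log2 CPM was nevertheless below 0 in 1198 listed genes (8.55%), down to -4.08, so a listed gene need not exceed 1 CPM on average. Without values per sample, how the filter was applied could not be checked. The level of an unlisted marker in either genotype is therefore unknown.

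**Figure D4:**
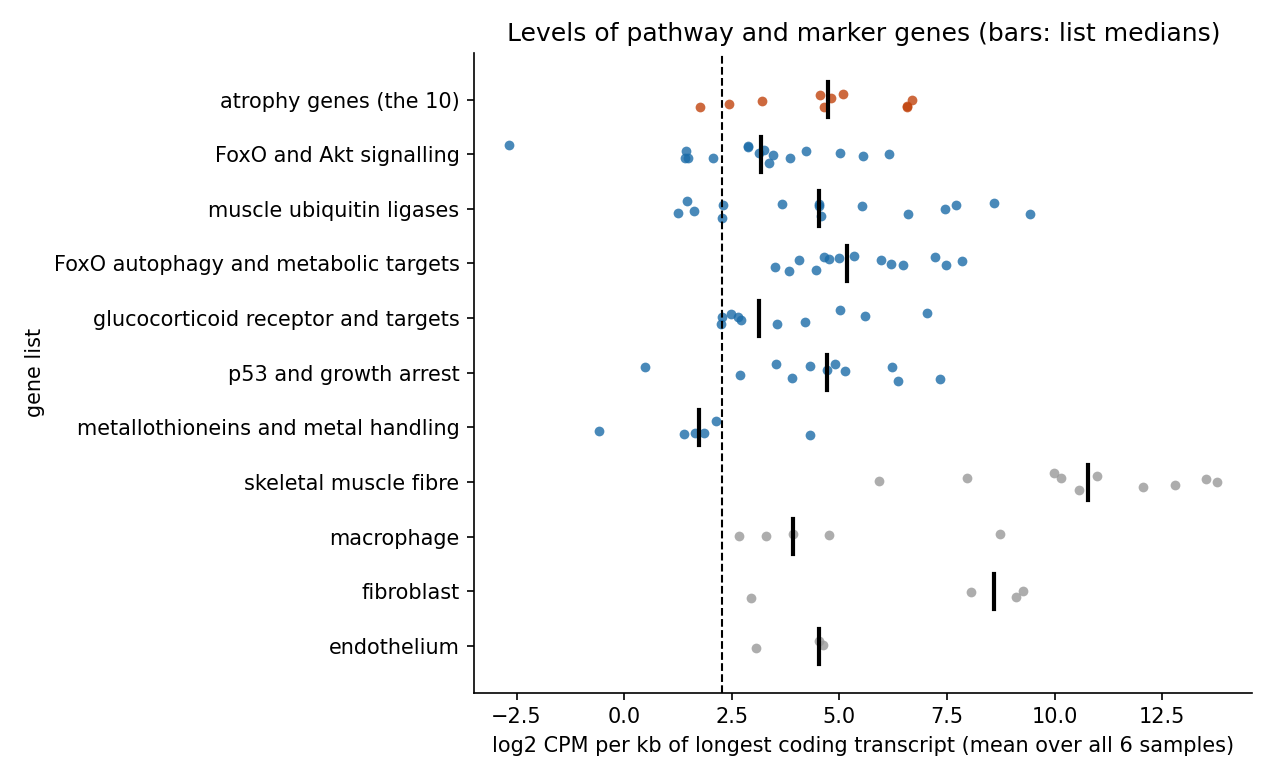
Level of each listed gene of 6 pathway lists (blue) and 4 marker lists (grey) beside the 10 atrophy genes (red), as log2 CPM per kb of the longest coding transcript, mean over all 6 samples; black bars are list medians and the dashed line is the median gene. The atrophy genes centre on 4.73, against 10.77 for muscle fibre markers and 1.74 for metal handling genes.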

How the data were processed

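RNA was isolated and polyA-selected libraries with ERCC spike-in were made by a sequencing provider. According to the study's methods, the authors pseudoaligned paired-end reads with kallisto, assigned genes with ensembldb, removed genes that did not exceed 1 CPM in 3 or more samples, and log-transformed and TMM-normalized the CPM. The submitters' processing notes name GRCm39 (mm39). How transcripts were summed to genes, the prior count and the annotation release are not given in the sources used here.

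The deposited table held 14016 rows (1 without a symbol) and 6 value columns. The authors' mean log2 CPM over all 6 samples was the only column used. The other 5 hold their own comparison of the genotypes (fold change, t statistic, p-value, adjusted p-value and log odds) and were not used. No column gave values per sample, so sequencing depth is unknown and the tests planned for such values were not made.

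Lengths came from GENCODE M21 (GRCm38), matched by symbol for 13458 genes (96.0%), a different build from that of the authors. The longest coding transcript was used, and for a gene without a coding transcript the longest of any kind. Other lengths and medians were tried. Coding length was the longest coding sequence among all transcripts of a gene, which need not be that of the longest or first numbered transcript. The transcript numbered first in each gene and the shortest coding one were added as alternatives after the data were seen. Coding sequences were aligned end to end, and transcripts were cut into words of 31 bases to find sequence shared between genes. Promoters came from RefSeq (GRCm38.p6) and were scanned on both strands, over 32851 windows. Scripts used Python 3.11.15, pandas 2.3.3, numpy 2.4.6, Biopython 1.88 and matplotlib 3.10.9, and were tested on simulated data. The members and lists were chosen with earlier results of these data known. All 10 members are named, and of each list first the 2 highest and 2 lowest by mean log2 CPM. A gene that this rule names is not reported here.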

Additional observations from a re-analysis of the deposited data

How the results depend on the processing

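Of 50 values recomputed under another setting, 29 were equal or, for counts, within 1.5 times, 16 moved and 5 changed sign. The pair levels per length that stayed equal used the same transcripts under both settings, so they could not change. Every pair level recomputed with a different length moved or changed sign. The 11 recomputed counts of members and pathway genes stayed within 1.5 times of those reported. Members with CAGCTG, not among these 11 counts, went from 2 to 1 when only bases before the start site were scanned. Members above the median per length numbered 8 to 10, and pathway genes above the median in CPM 57 to 62. The count of pathway genes above the median per kb was not recomputed. The reversals were in levels per length between pairs of members, given on the log2 scale. Outside these 50, the comparisons of Foxo1 with Foxo6 and of Fbxo32 with Fbxo40 also changed sign with coding length (0.40 and 0.72), and that of Cdkn1a with Cdkn1c with the shortest coding transcript (-0.04). Fbxo32 over Trim63 was -1.76 and became 0.13 with coding length. Cdkn1a over Gadd45a was -0.14 and became 0.68 with coding length. Mt1 over Mt2 was -0.09 and became 0.20 with coding length, 0.49 with the shortest coding transcript and 0.89 with the first numbered transcript. No paired analysis was possible because the column used pools all samples; for the same reason leaving out each replicate, a replicate block, another pseudocount and no filter on low values were not run. Replicate error and depth could not be weighed, since the column gives neither.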
